A study of Caenorhabditis elegans with 2 samples.

Results

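The nuclear genes of the mitochondrial respiratory chain and ATP synthase were followed in a chromatin map of GEI-17, a PIAS-type SUMO E3 ligase of the worm Caenorhabditis elegans. The rule took every nuclear protein-coding gene whose symbol starts with nuo-, cox-, ucr-, atp-, asb-, asg-, sdha-, sdhb-, sdhc-, sdhd-, isp- or gas-. This gave 41 of the 19973 nuclear protein-coding genes. By role, 7 belong to complex I, 4 to complex II, 6 to complex III, 7 encode subunits of complex IV and 9 belong to ATP synthase. The other 8 cox- genes (cox-10, cox-11, cox-14, cox-15, cox-16, cox-17, cox-18 and cox-19) are named for factors that assemble complex IV, so the name rule is wider than the subunits. It is also narrower, since other subunits carry other names.

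The samples were whole young adults of strain OP572 harvested at 64 h, males and females together, from cultures synchronised by hatching into starvation. The strain carries unc-119(tm4063) and the integrated transgene wgIs572, which holds gei-17 fused to TY1, EGFP and 3xFLAG and, as a rescue marker, wild-type unc-119. Chromatin was sonicated and precipitated with an antibody to GFP, then sequenced (ChIP-seq), in 1 group of 2 biological replicates numbered 4 and 5. Whole animals were used, so signal from different tissues cannot be told apart. Worms without the tagged protein were not analysed here, so signal of GEI-17 and signal independent of it cannot be told apart.

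Complexes I to IV of the inner mitochondrial membrane pass electrons from NADH and succinate to oxygen and, apart from complex II, pump protons. ATP synthase lets the protons back and makes ATP. Most subunits are encoded in the nucleus and imported, while a few core subunits are encoded by the mitochondrial genome, so the supply of both has to be matched. PIAS-type SUMO E3 ligases help to attach SUMO, a small ubiquitin-like modifier, to proteins that include transcription factors and other chromatin proteins.

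The sequences under 6 summits are shown first because they are the DNA at which the signal of these genes was centred. Those of atp-1 and cox-5B, the second and the third highest, are not printed. Each is 101 bases of build ce11, read 5′ to 3′ on the strand of the gene, with the 11 bases around the summit in capitals. The first 4 are from promoters whose summit passed the irreproducible discovery rate (IDR) filter, which is meant to keep regions reproducible between replicates. The last 2 are the highest summits that did not pass. In order, they lie at chrIII:12905180-12905280 (plus strand), chrX:15173662-15173762 (plus), chrIII:5080873-5080973 (plus), chrX:12018043-12018143 (plus), chrX:8546194-8546294 (minus) and chrX:6840976-6841076 (plus).
cox-5A: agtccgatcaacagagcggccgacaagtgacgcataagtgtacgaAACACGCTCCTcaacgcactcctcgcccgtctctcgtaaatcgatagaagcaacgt
ucr-2.2: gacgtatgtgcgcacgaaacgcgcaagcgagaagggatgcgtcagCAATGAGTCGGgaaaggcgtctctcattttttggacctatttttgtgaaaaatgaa
cox-6A: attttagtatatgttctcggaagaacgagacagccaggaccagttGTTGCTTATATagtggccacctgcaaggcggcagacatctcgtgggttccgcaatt
ucr-2.1: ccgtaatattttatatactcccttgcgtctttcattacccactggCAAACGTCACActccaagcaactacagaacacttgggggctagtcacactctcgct
sdha-1: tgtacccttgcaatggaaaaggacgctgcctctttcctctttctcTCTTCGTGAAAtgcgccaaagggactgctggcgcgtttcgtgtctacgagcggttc
asg-2: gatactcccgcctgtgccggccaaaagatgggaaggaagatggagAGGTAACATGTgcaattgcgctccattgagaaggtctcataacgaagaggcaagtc

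Of the sequences shown, 26 bases of that of cox-6A lie inside an snRNA gene, and 11 bases of that of sdha-1 lie inside a snoRNA gene. The sequence of ucr-2.1 begins at the annotated start of its divergent neighbour nmat-1.

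GEI-17 signal was found at the promoters of 24 of the 41 genes, and it passed IDR at 6: cox-5A, cox-5B and cox-6A of complex IV, ucr-2.1 and ucr-2.2 of complex III, and atp-1 of ATP synthase. A gene was counted where the highest summit between 1000 bp upstream and 200 bp downstream of its start was in the list in question. The list of candidates, called on both replicates pooled, holds 30000 summits and is labelled as peaks and background together, so a candidate that did not pass IDR may be background. The share of genes with a candidate was 58.5%, against 30.9% of all nuclear protein-coding genes. The share that passed IDR was 14.6%, against 2.99% of all genes. Among the genes with a candidate, 6 of 24 passed (25%, exact Clopper-Pearson 95% interval 9.77% to 46.7%), against 9.68% of all 6175 genes with a candidate. The interval treats genes as independent, although some share a summit with a neighbour, and its lower end lies close to the background share. It is not a test against that share. With 1 group of samples and no worms without the tagged protein, no test was made, and the counts are given beside their background.

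Summit height is given as the deposited signal value, on a scale that the authors do not state. It ranks regions within a list and was not compared in size between lists. The 24 summits ran from 24.4 to 450.03 with a median of 62.0 and a median rank of 3865.5 of 30000. Over the 6175 genes with a candidate the median was 41.2 and the median rank 10279. Of the 24 genes, 16 lay above that median, so the candidates of these genes sat higher in the list than those of genes at large. The lowest signal that passed IDR was 110.4, and the 1030 summits that passed were the 1030 highest of the pooled list. Passing was thus a height in the pooled list and did not by itself place a summit in each replicate.

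**Figure D1:**
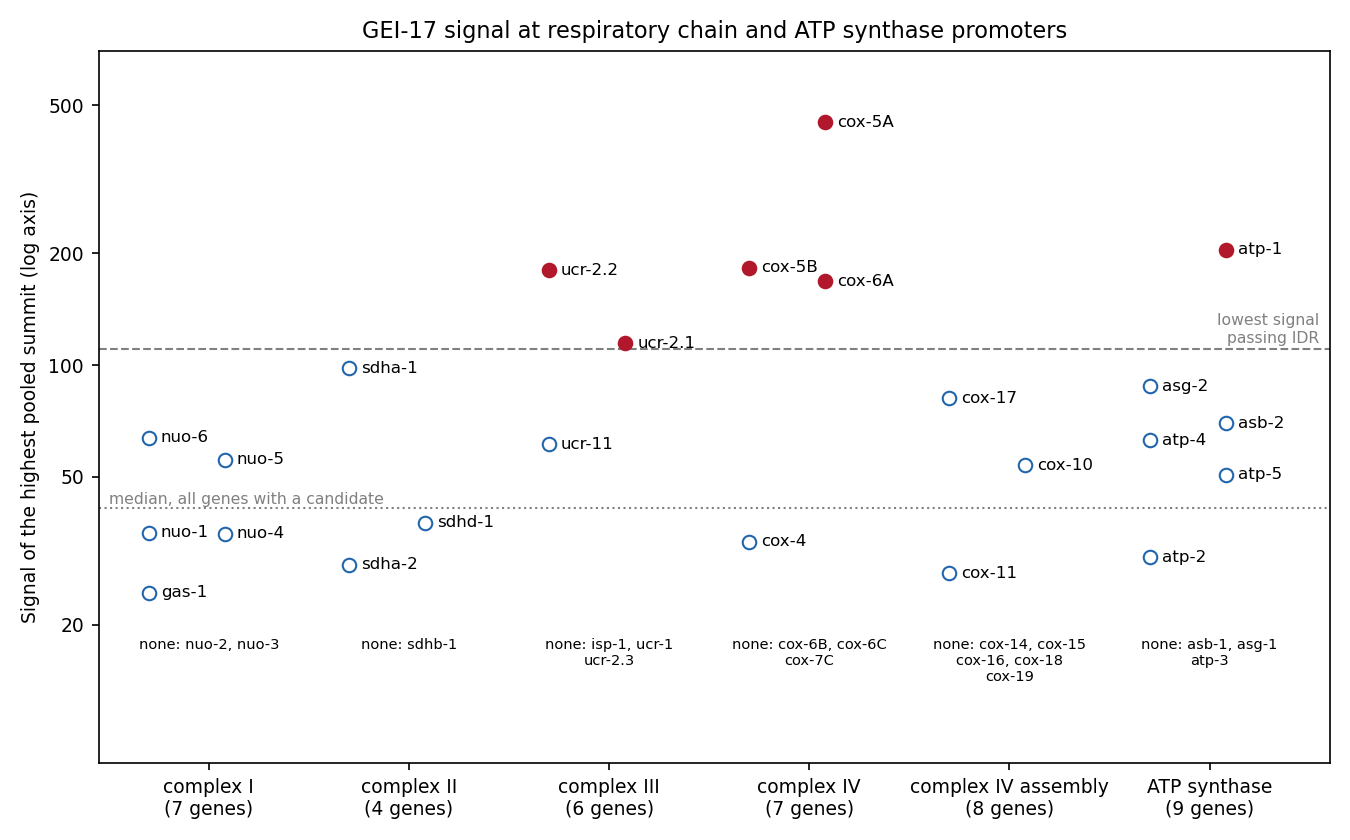
Signal of the highest pooled summit in the promoter window (authors' deposited signal, log axis) for the 24 genes with a candidate, by complex; filled red points passed IDR and open blue points did not. The dashed line is the lowest signal that passed IDR (110.4) and the dotted line the median over all genes with a candidate (41.2); the 6 genes that passed belong to complexes III and IV and ATP synthase.

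Complex IV, cytochrome c oxidase, reduces oxygen and held the highest signal among the 41 nuclear genes. Of its 7 subunit genes, 4 had a candidate (57.1%, against 30.9% of all genes) and 3 passed IDR. Of the 4, the share passing was 75% (exact 95% interval 19.4% to 99.4%), against 9.68% of all genes with a candidate. The gene cox-5A encodes a small nuclear subunit on the matrix side. Its pooled summit had a signal of 450.03 and ranked 76 of 30000. It lay 261 bp upstream of the start in the region chrIII:12905063-12905360. The region was intergenic, no other gene's window held the summit, and the nearest upstream gene, unc-71, was 13753 bp away. In the list of replicate 4 the summit had a signal of 220.3 and ranked 54, and in that of replicate 5 it had 229.5 and ranked 97. It therefore stood among the 100 highest summits of each of the 3 candidate lists.

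The gene cox-5B encodes another small nuclear subunit, which binds zinc in mammals. Its summit had a signal of 182 and ranked 391 in the pooled list. It lay 13 bp inside the gene, in the 5′ UTR, in the region chrI:9788516-9788959. In replicate 4 its signal was 73.3 at rank 521, and in replicate 5 it was 116.5 at rank 346. No other window held the summit, and the upstream gene tba-1, on the opposite strand, was 1101 bp away.

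The gene cox-6A encodes a further small subunit, and its summit, with a signal of 168 at rank 468, was the farthest from its gene of the 6. It lay 801 bp upstream, in the region chrIII:5080842-5081005, and 25 bp from the snRNA gene F54D8.7, which is on the minus strand. The other 5 summits lay within 336 bp of the start of their gene. Its rank differed most between the replicates, at 212 in replicate 4 (signal 108.0) and 1234 in replicate 5 (signal 63.7). Whether the summit belongs to cox-6A or to the snRNA gene was not tested. Of the other subunit genes, cox-4 had a candidate of 33.5 at rank 15315, which lay 413 bp upstream inside a pseudogene, and cox-6B, cox-6C and cox-7C had none.

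The gene model of cox-6B spans 87197 bp. The body of the model held 30 pooled summits, and the nearest to the start was 7303 bp downstream. A summit that passed IDR, with a signal of 119.7, lay in an intron of the model and 171 bp from the start of swsn-3. It was assigned to swsn-3 and not to cox-6B.

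The 8 cox- genes for assembly of complex IV held weaker candidates than the subunit genes that passed IDR. The copper factor gene sco-1 of complex IV is outside the name rule, and it passed IDR at 171. Of 8, 3 had a candidate and 0 passed IDR (exact 95% interval of the share passing, of 3, up to 70.8%). The gene cox-17, for a copper chaperone, had 81.3 at rank 2024, 137 bp inside the gene in an intron. The gene cox-10, for the enzyme that makes heme O from heme B, had 53.8 at rank 5481. The gene cox-11, also for copper delivery, had 27.6 at rank 20895, in an exon of the neighbouring gene JC8.4. A second summit near cox-10 passed IDR with a signal of 135.4, but it lay 1697 bp upstream, outside the window.

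Complex III, ubiquinol-cytochrome c reductase, had 2 of its 6 genes past IDR, both of them copies of the core 2 protein. A candidate was found at 3 of the 6 (50%, against 30.9% of all genes). Of the 3, the share passing was 66.7% (exact 95% interval 9.43% to 99.2%), against 9.68% of all genes with a candidate. The summit of ucr-2.2 had a signal of 179.6 at rank 405. It lay 192 bp upstream in the region chrX:15173637-15173788, which was intergenic and in no other gene's window. Its rank was 620 in replicate 4 (signal 68.2) and 345 in replicate 5 (signal 116.7).

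The summit of ucr-2.1 had a signal of 114.5 at rank 959 and was the nearest of the 6 to the IDR limit. It lay 336 bp upstream in the region chrX:12017871-12018314. It was nearer to the start of nmat-1, a divergent gene, 50 bp from the summit, than to ucr-2.1. In replicate 4 it ranked 1006 (signal 55.3) and in replicate 5 it ranked 1213 (signal 64.0). The summit was given to both genes by the window rule, and which of them it serves cannot be told apart.

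Among the other genes of complex III, ucr-11, for a small subunit, had a candidate of 61.2 at rank 3999, which lay in the 3′ UTR of the gene upstream, dad-1. A summit with a signal of 163.8 that passed IDR stood 1294 bp upstream of ucr-11, outside the window and 56 bp from the start of tre-1. The Rieske iron-sulfur protein gene isp-1, the core 1 gene ucr-1 and the third core 2 gene, ucr-2.3, had no pooled candidate.

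ATP synthase had candidates at 6 of 9 genes (66.7%, against 30.9% of all genes). Of the 6, 1 passed IDR (16.7%, exact 95% interval 0.421% to 64.1%), against 9.68% of all genes with a candidate. This was atp-1, which encodes the alpha subunit of the catalytic head. Its summit had a signal of 204 at rank 311, the second highest of the 41 genes. It lay 5 bp upstream of the start in the region chrI:12652171-12652365. The start of mcrs-1, on the opposite strand, was 190 bp from that of atp-1, and the summit was also in its window. A piRNA gene, 21ur-12279, lay 113 bp away. In replicate 4 the summit ranked 353 (signal 86.7) and in replicate 5 it ranked 296 (signal 124).

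The partner of the alpha subunit in the head, the beta subunit gene atp-2, had 30.4 at rank 18067, so both head genes had a candidate but only atp-1 passed IDR. The stalk and membrane genes that had a candidate lay between the values of atp-2 and atp-1. The gene asg-2, for subunit g, had 87.6 at rank 1732, and asb-2, for subunit b, had 69.7 at rank 2876. The gene atp-4, for coupling factor 6, had 62.8 at rank 3732 inside its coding exon, and atp-5, for subunit d, had 50.7 at rank 6307. The gene for the oligomycin sensitivity protein, atp-3, had no pooled candidate, but in the list of replicate 4 alone a summit 9 bp upstream of its start had a signal of 39.5 at rank 2411. The genes asb-1 and asg-1 had no pooled candidate.

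Under the name rule, complex I, the NADH dehydrogenase, and complex II, succinate dehydrogenase, had candidates but none past IDR. In complex I, 5 of 7 genes had one (0 of 5 passing, exact 95% interval up to 52.2%), with signals from 24.4 to 63.8. The highest was nuo-6, at 63.8 and rank 3573, but its summit lay 692 bp upstream inside a coding exon of tofu-5. No candidate of replicate 4 overlapped its region. The gene nuo-5, for the large iron-sulfur subunit, had 55.6 at rank 5043, 12 bp inside the gene. The gene nuo-1, for the flavoprotein that takes electrons from NADH, had 35.4 at rank 13897, and its summit also stood in the window of the ribosomal protein gene rpl-36.A. The gene nuo-4 had 35.2 at rank 14072, in a coding exon of rnp-7. The gene gas-1, for another core subunit whose mutation makes worms sensitive to volatile anaesthetics, had the lowest signal of the 24, at 24.4 and rank 24549. The genes nuo-2 and nuo-3 had no pooled candidate.

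In complex II, 3 of 4 genes had a candidate (0 of 3 passing, exact 95% interval up to 70.8%). The flavoprotein gene sdha-1 had 98.2 at rank 1344, the highest signal among the 41 that did not pass. Its summit lay 223 bp upstream inside the non-coding gene D2021.5, and the snoRNA gene D2021.6 lay 40 bp away. It ranked 3576 in replicate 4 and 1378 in replicate 5. The other flavoprotein gene, sdha-2, had 29.0 at rank 19432, in a coding exon of ndua-13. The membrane anchor gene sdhd-1 had 37.6 at rank 12410, 10 bp inside the gene, and the iron-sulfur gene sdhb-1 had no candidate.

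Of the 4 sets of gene copies among the 41 genes, each had its highest signal on the X chromosome. The X copies ucr-2.1 and ucr-2.2 passed IDR while ucr-2.3, on chromosome III, had no pooled candidate. The X copies asb-2 and asg-2 had candidates while asb-1 and asg-1, on autosomes, had none in the pooled list. In the replicate lists asb-1 had a candidate in each, at different places, and asg-2 ranked only 21842 in replicate 4. In the last pair, sdha-1 on X had 98.2 and sdha-2, on chromosome I, had 29.0. The summit of asg-2 also stood in the window of the divergent gene glr-6, 306 bp from its start, that of ucr-2.1 in the window of nmat-1, and that of sdha-1 lay near a snoRNA gene. The order was read from the values and not tested.

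The 6 genes on X (asb-2, asg-2, gas-1, sdha-1, ucr-2.1 and ucr-2.2) all had a candidate, against 42.3% of all X genes. Of these 6, 2 passed IDR, against 11.9% of X genes with a candidate. On the autosomes 18 of 35 had a candidate, against 29.1% of autosomal genes, and 4 of those 18 passed, against 9.16%. The chromosome moved with the signal over all genes as well, and its part in the counts of these genes was not tested.

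The replicates were set side by side by rank. All 6 genes that passed IDR had a pooled region that overlapped a candidate of each replicate by at least 1 bp, and their summits in the replicate lists lay 0 to 44 bp from the pooled summit. The IDR filter itself uses the replicates, and 99.3% of all 1010 nuclear summits that passed also overlapped candidates in both. Among the 18 genes with a candidate that did not pass, 11 overlapped candidates in both replicates, 4 in replicate 4 only and 3 in replicate 5 only. Over the 24 genes this gave 17, or 70.8%, against 56.1% of all 29980 nuclear pooled summits. The 2 sets are unlike, since the 24 are the highest summits of promoter windows and the others lie at any place and height. The share over the highest promoter summits of all genes was not computed.

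Some of the higher candidates rested mostly on 1 replicate. The summit of asg-2 ranked 21842 in replicate 4 (signal 16.3) and 1293 in replicate 5 (signal 62.2). That of cox-17 ranked 1364 in replicate 4 (signal 48.8), and the overlapping candidate in replicate 5 ranked 14889 (signal 22.1). That of asb-2 ranked 9202 in replicate 4 (signal 24.3) and 2732 in replicate 5 (signal 46.2). Among the 1030 highest summits of each replicate alone, replicate 4 held all 6 genes that passed IDR and replicate 5 held 4 of them, without cox-6A and ucr-2.1.

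**Figure D2:**
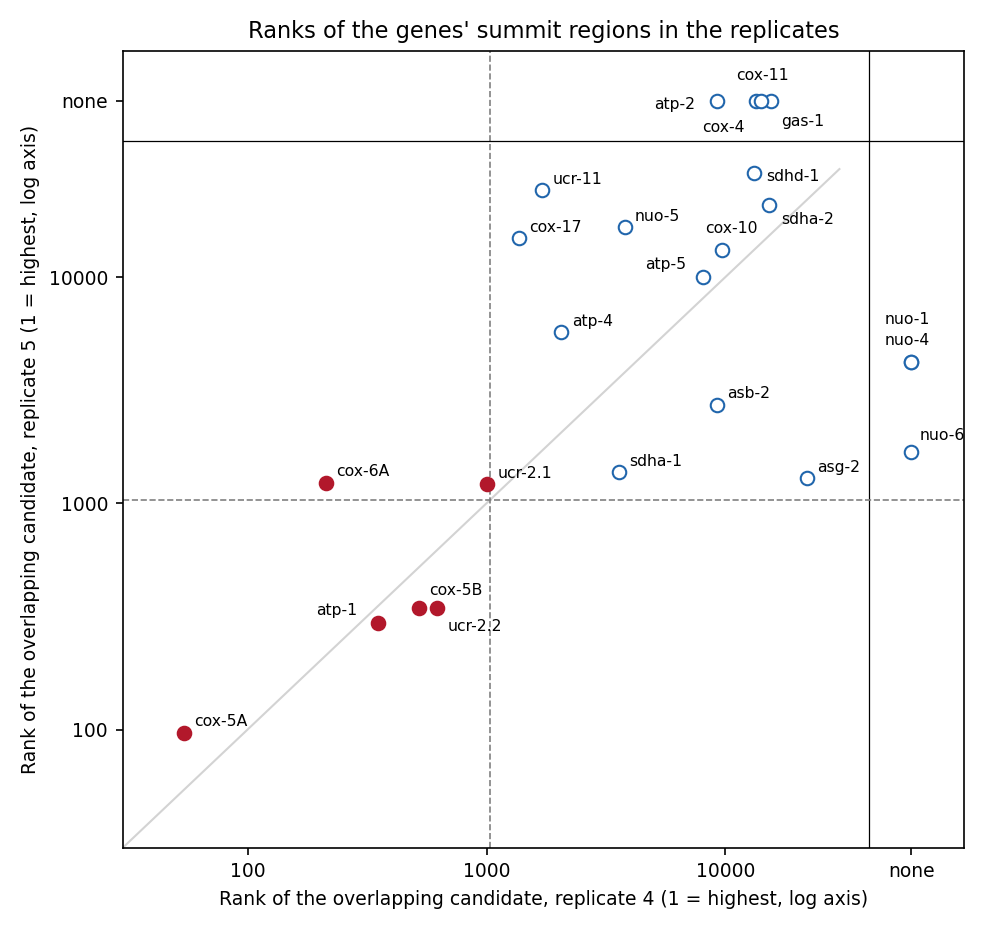
Rank of the candidate that overlaps each gene's pooled region in replicate 4 (horizontal, log axis) and replicate 5 (vertical, log axis) for the 24 genes with a pooled candidate; filled red points passed IDR, open blue points did not, dashed lines mark rank 1030, the grey line marks equal ranks, and points beyond the solid lines ("none") had no overlapping candidate in that replicate. The 4 genes atp-1, cox-5A, cox-5B and ucr-2.2 lie within rank 1030 in both replicates, and cox-6A and ucr-2.1 within it in replicate 4 only.

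Of the 17 genes without a pooled candidate, 11 had a candidate in the list of a single replicate or of both. These were atp-3, cox-14, cox-15, cox-16, cox-6C and ucr-2.3 in replicate 4, cox-7C, nuo-3 and ucr-1 in replicate 5, and asb-1 and isp-1 in both. In the last 2 the replicates' summits lay at different places. That of asb-1 was 532 bp upstream in replicate 4 and 16 bp inside the gene in replicate 5. That of isp-1 was 937 bp and 276 bp upstream. The other 6, asg-1, cox-18, cox-19, cox-6B, nuo-2 and sdhb-1, had none in any list in the window of the gene start. Where any annotated transcript start was used, cox-6B and ucr-1 gained a pooled candidate. The edge of the window mattered for a few: pooled summits lay 232 bp inside cox-18 (signal 28.7), 369 bp inside ucr-2.3 (signal 21.2) and 386 bp inside nuo-3 (signal 38.0), just beyond the limit of 200 bp. None of these signals reached the median of all genes with a candidate.

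The window reaches farther upstream of the start than downstream, so most summits in it lie upstream by construction. The upstream shares of these genes did not exceed those of all genes. Of the 6 that passed IDR, 5 were upstream, with a median of 226.5 bp upstream, against 92.3% upstream and a median of 255 bp over all 598 genes that passed. Of the 24 candidates, 19 were upstream, against 80.7% of all genes with a candidate, and 17 lay within 300 bp of the start, against 54.0%. The summit also stood in the window of another protein-coding gene for 14 of the 24, against 26.9% of all genes with a candidate. For the genes that passed IDR this held for 2 of 6 (atp-1 and ucr-2.1), against 42% of all 598. A small non-coding RNA gene lay within 200 bp of the summit for 2 of the 6 (atp-1 and cox-6A), against 9.20%, and for 3 of the 24, against 3.17%. The part of these neighbours in the signal was not tested.

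**Figure D3:**
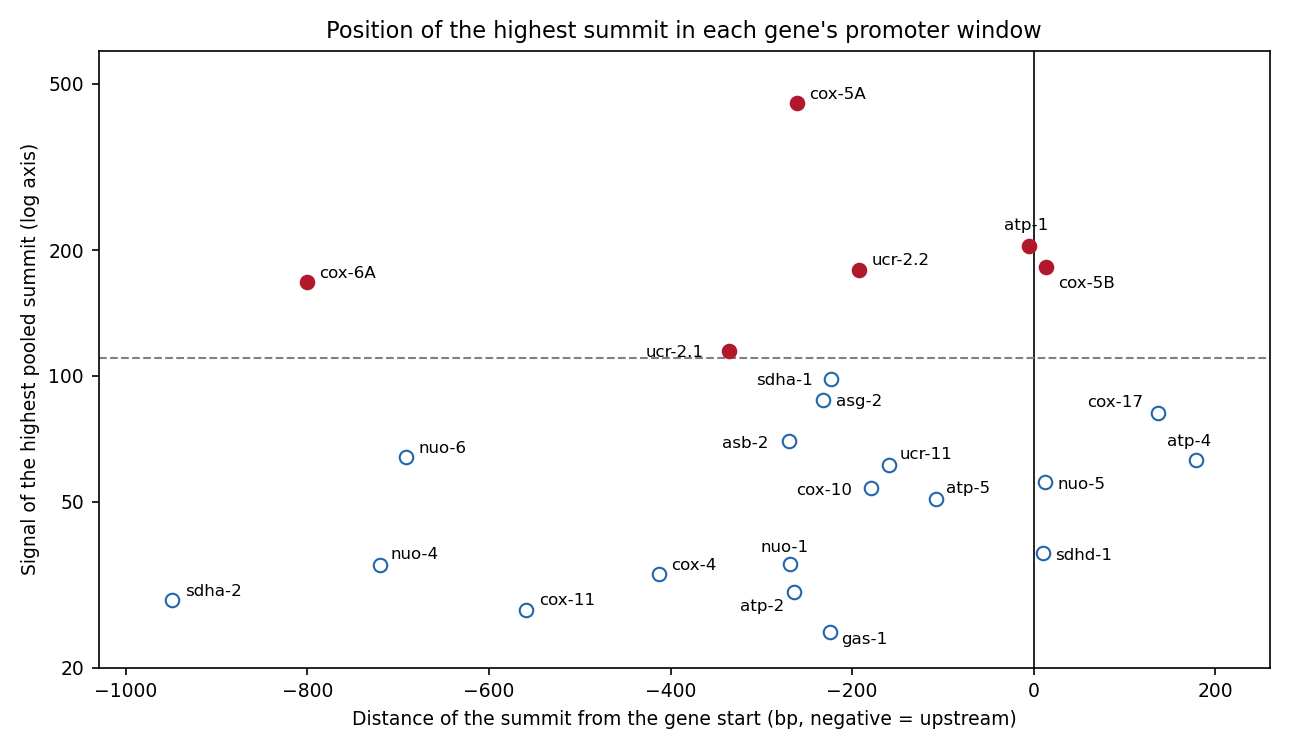
Distance of each gene's highest pooled summit from the gene start (bp, negative is upstream) against its signal (authors' deposited signal, log axis) for the 24 genes with a candidate; filled red points passed IDR and open blue points did not, and the dashed line is the lowest signal that passed (110.4). Of the 6 that passed, 4 lie within 300 bp of the start, and cox-6A is the farthest at 801 bp upstream.

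Gene arrangement differed among the 41 genes. Genes closely spaced on the same strand are often co-transcribed in C. elegans as operons, in which the downstream gene need not have its own promoter. In 10 of the 41 the upstream gene was on the same strand and ended within 200 bp of the start (atp-4, cox-11, cox-15, cox-17, cox-18, cox-19, nuo-2, nuo-4, nuo-5 and ucr-11). Of these 10, 6 had a candidate, against 40.9% of all 1898 genes so placed, and 0 passed IDR, against 2.21%. In 22 the upstream gene was on the opposite strand within 1000 bp, and 10 had a candidate, against 38.6% of 3503 genes, and 2 passed (atp-1 and ucr-2.1), against 5.54%. In the remaining 9, 8 had a candidate, against 27.8% of 14572 genes, and 4 passed (cox-5A, cox-5B, cox-6A and ucr-2.2), against 2.48%. These classes were chosen after the values were seen.

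The DNA at the summits was searched for 6 words on both strands within 50 bp: GAGAGAGA, the heat shock word TTCTAGAA, the E-box CACGTG, the E2F-type word TTTCCCGC, the cyclic AMP response word TGACGTCA and the run TTTTTTTT. The first 5 were in 0 of the 24 windows, and TTTTTTTT was in 1, that of cox-10. Each word was rare over all 5373 promoter summits too, at 2.27%, 0.596%, 2.96%, 0.484%, 0.763% and 7.91% in that order. Over the 470 promoter summits that passed IDR the shares were 3.40%, 1.06%, 4.47%, 0.638%, 1.28% and 4.04%. A window without a word says only that these letters are not in it. The sequences printed above hold none of the 6.

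The median GC content of the 101 bases at the summit was 46.5% for the 24 genes, against 41.6% for all promoter summits and 49.5% for those that passed IDR. Among the 6 that passed it was 60.4% for atp-1, 57.4% for cox-5B, 53.5% for cox-5A, 48.5% for cox-6A, 47.5% for ucr-2.2 and 46.5% for ucr-2.1. The lowest of the 24 was atp-5, at 23.8%. Base composition moved with the signal over all promoters, and its part in the signal of these genes was not tested.

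Respiratory chain genes with other names had candidate shares near that of the 41 (58.5%), while their shares passing IDR differed by list. Of 33 further genes of the chain and its carriers, 21 had a candidate (63.6%, against 30.9% of all genes). Of the 21, 5 passed IDR (23.8%, against 9.68% of all genes with a candidate). The highest were sco-1, for a copper factor of complex IV, at 171, and mev-1, for the cytochrome b subunit of complex II, at 166. The ADP/ATP carrier gene ant-1.1 and the neighbouring T27E9.2 shared a summit of 151, which also stood in the window of abcf-2. The mev-1 summit was shared with jmjd-4. The fifth gene was Y82E9BR.3, at 124. Complex II, which had 0 of 4 genes past IDR under the name rule, therefore has a subunit gene that passed when mev-1 is counted. In the same way, a complex IV factor that is not a subunit passed when sco-1 is counted. The counts by complex given above cover the name rule only.

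Complex I genes named by the newer ndu- prefixes, a list added after the annotation was seen, gave 13 of 25 with a candidate. Of the 13, 1 passed IDR (7.69%, against 9.68% of all genes with a candidate). That share was also below the 25% of the 41 genes' candidates. This was ndub-8, at 116, which shared its summit with cup-14. Complex I, which had 0 of 7 genes past IDR under the name rule, therefore has a gene that passed when ndub-8 is counted. Together, and with 9 genes in both lists counted once, the other names gave 30 of 49 with a candidate (61.2%) and 6 of those 30 past IDR. The 41 genes gave 24 (58.5%), with 6 past IDR.

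Other mitochondrial and energy pathways were counted in the same way, with no test between lists. Over all genes, 30.9% had a candidate and 9.68% of those passed IDR. The share with a candidate was 86.4% in the tricarboxylic acid cycle and 75% in coenzyme Q synthesis, above the 58.5% of the 41 genes. It was 50% in import and 48.6% in the mitochondrial ribosome, below the 41 but above all genes. Of the genes with a candidate, 15.8% passed in the tricarboxylic acid cycle, 8.82% in the mitochondrial ribosome and 25% in import. The share for the mitochondrial ribosome was thus below that of all genes. Of 22 tricarboxylic acid cycle genes, 19 had a candidate and 3 passed IDR: aco-2, for aconitase, at 168, dld-1, for the lipoamide dehydrogenase shared by several enzyme complexes, at 165, and sucl-1, for a subunit of succinyl-CoA ligase, at 131. The aco-2 summit also stood in the window of eef-1B.1. Of 70 mitochondrial ribosome genes, 34 had a candidate and 3 passed (mrpl-23 at 166, mrpl-28 at 134 and mrpl-45 at 131), and that of mrpl-45 was shared with Y119D3B.12. Of 16 import genes, 8 had a candidate and 2 passed, ddp-1 at 384, whose summit also stood in the window of ttc-7, and tomm-20 at 123. Of 8 coenzyme Q synthesis genes, 6 had a candidate and 0 passed (exact 95% interval up to 45.9%).

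Outside the mitochondrion, 12 of 19 glycolysis genes had a candidate (63.2%, against 30.9% of all genes) and 0 passed (exact 95% interval up to 26.5%). The vacuolar ATPase, a proton pump of acidic organelles related to ATP synthase, had a candidate at 15 of 21 genes (71.4%). Both shares were above the 58.5% of the 41 genes, so a raised candidate share was not particular to the 41. Of the 15, 2 passed (13.3%, against 9.68% of all genes with a candidate). These were vha-12 at 188 and vha-8 at 116, the latter shared with C17H12.2. The intervals of the shares passing, of genes with a candidate, overlapped between all of these lists and the 41 genes.

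**Figure D4:**
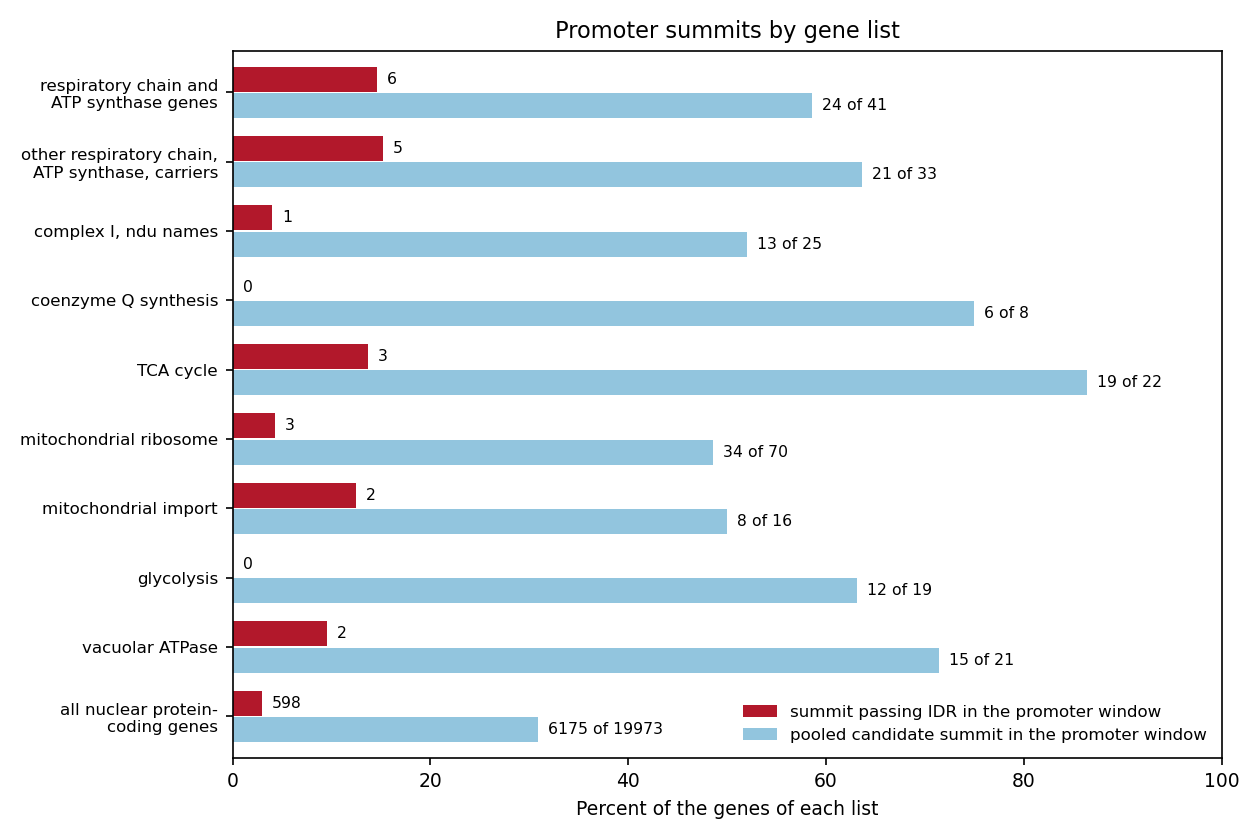
Percent of the genes of each list with a pooled candidate in the promoter window (blue bars, with the count and the list size) and with a summit passing IDR (red bars, with the count), for the 41 respiratory chain and ATP synthase genes, 8 other lists and all nuclear protein-coding genes. The 41 genes have 58.5% and 14.6%, and all genes 30.9% and 2.99%.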

How the data were processed

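Regions came from 4 lists in build ce11: candidates of replicate 4, of replicate 5 and of both pooled, and the pooled summits passing IDR. Summit height is the deposited signal value, whose scale is unstated. The lists were called with a control alignment, per the listings deposited beside the samples. What called the peaks, and at which IDR threshold, is not given in the sources used here. Sequencing depth is unknown, so exact intervals (Clopper-Pearson, 95%) cover the counting of genes only.

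Genes were those of Ensembl release 115 (WBcel235, the coordinates of ce11), and sequences came from RefSeq's genome of the same build, after chromosome lengths were compared. Each gene took its highest summit from 1000 bp upstream to 200 bp downstream of its start. Every one of the 41 genes is named, with all values for those passing IDR and, of the other lists, the 3 highest genes; the other 2 of the further chain genes, and summits outside the window, were named after their values were seen. Of the listed names, 2 matched no gene. The genes and lists were chosen with earlier results of these data known.

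Other windows, thresholds, gene starts, assignments, overlap criteria and single replicates were tried. The assignment was tested on simulated summits. Tables were handled with pandas 2.3.3 and numpy 2.4.6, intervals with scipy 1.17.1 and plots with matplotlib 3.10.9, in Python 3.11.15.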

Additional observations from a re-analysis of the deposited data

Results flagged for a closer look

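The mitochondrial genome, which encodes the remaining core subunits of the respiratory chain and was outside the rule for nuclear genes, held 20 summits in the list that passed IDR, with signals from 133.8 to 13744.5. Of these, 16 lay inside a protein-coding gene, and 10 of the 12 such genes held at least 1. The list of replicate 5 held 23 mitochondrial summits and that of replicate 4 held 0, so the signal was seen in 1 replicate and in the pool. No worms without the tagged protein were analysed here, and the cause was not tested.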

How the results depend on the processing

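The count of genes passing IDR was 6 (2.99% of all genes) and stayed between 4 and 8 under every alternative run; the share of all genes moved with the setting and is given in parentheses. It was 8 (4.19%) with a window from 2000 bp upstream to 500 bp downstream, adding cox-10 and ucr-11, and 4 (2.08%) with a window from 500 bp upstream to the start, losing cox-5B and cox-6A. It was 5 (1.5%) with the 500 highest pooled summits, losing ucr-2.1, 8 (5.19%) with the 2000 highest, adding asg-2 and sdha-1, and 5 (2.34%) by nearest start, losing ucr-2.1. Leaving out a replicate gave 4 without replicate 4, losing cox-6A and ucr-2.1, to 6 without replicate 5 (2.8% in each case). These are the genes among the 1030 highest summits of the replicate kept, since IDR needs both replicates. Among alternatives chosen after seeing the data, it was 4 (1.93%) where the gene had to be among the 1030 highest summits of both replicates, 4 (2.72%) without summits near a small non-coding gene and 4 (1.74%) without shared windows. The count with a candidate was 24 (30.9%). It fell to 15 (18%) with the window from 500 bp upstream to the start, which by construction holds fewer summits. It was 26 (33.9%) with any transcript start, adding cox-6B and ucr-1, and 30 (42.1%) with the window from 2000 bp upstream to 500 bp downstream. It was 25 (30.5%) without replicate 4 and 30 (32.7%) without replicate 5. The 17 genes found by both replicates became 14 with summits within 100 bp. With the wider window the highest signal changed for 4 genes. It became 63.5 for atp-2, above atp-4 and atp-5, and 64.9 for nuo-4, above nuo-6. For cox-10 it became 135.4 and for ucr-11 it became 163.8. The word TTTTTTTT was in 2 windows within 100 bp. No paired analysis was possible because there is 1 group. Depth, unknown here, limits the precision of each signal.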
